A study of Homo sapiens with 9 samples.

Results

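The genes described here carry solute carrier symbols, that is, SLC followed by a digit. They were taken from RNA sequencing of Raji, an established human B-cell line from a Burkitt lymphoma. A gene was included when its count, as counts per 1e6 counts of the library (CPM), was at least 1 in at least 3 of the 9 libraries. SLC7A5, SLC7A11, SLC3A2 and SLC25A44, and all pseudogenes, were left out. This gave 178 of the 11346 genes that met the same minimum among 15436 listed genes. Of 211 listed genes with such a symbol, 29 missed the minimum, 4 were set aside by name and 8 were pseudogenes, none of which met the minimum. The 178 comprise 166 genes for carriers, 4 genes for proteins that are not carriers (SLC4A1AP, SLC7A6OS, SLC2A4RG and NHERF1, which also goes by an SLC symbol) and 8 antisense or divergent non-coding RNAs. A CPM of 1 or more was reached in all 9 libraries by 129 of them and in exactly 3 by 6.

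There were 3 groups with 3 libraries each. The control group received DMSO, a solvent. The second received hydroxyurea (HU), an inhibitor of ribonucleotide reductase that slows DNA replication by depleting deoxynucleotides. The third received thymidine and nocodazole (Thy-Noc): excess thymidine halts DNA synthesis, and nocodazole prevents microtubule assembly and so holds cells in mitosis. All libraries came from 1 cell line with no other genetic change named in the labels, and no dose or time of treatment is given in the sources used here. Whether replicates are separate cultures is not stated in the labels, so the spread between libraries that the p-values measure may be technical.

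Solute carriers are membrane proteins that move small molecules across the plasma membrane and the membranes of mitochondria, lysosomes and the secretory pathway. Some let a solute run down its gradient, others couple it to sodium, protons or a second solute. In proliferating B cells they bring in the glucose, amino acids, nucleosides, phosphate, vitamins and metals used for growth, and the mitochondrial family (SLC25) exchanges nucleotides, phosphate and carboxylates between mitochondrial matrix and cytosol.

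The deposited counts summed to between 74940755 and 110485145 per library, and the median count of a solute carrier gene over genes and libraries was 1382, with a lowest value of 1. All 7 B-cell markers examined, among them MS4A1, CD79A and PAX5, were abundant enough to test, and their summed CPM ran from 1847 to 2289 in DMSO, 1634 to 2311 in HU and 1637 to 2603 in Thy-Noc. None of the 7 was called for HU against DMSO, beside 3.56% of all tested genes. Without overlap, 2 of the 7 lay higher and 1 lower in HU, beside 15.5% and 15.3% of all tested genes. BLNK was at 44.8, 48.2 and 39.9 CPM in DMSO and 23.2, 14.0 and 18.3 in HU, and CD22 at 1.51, 4.17 and 1.92 in DMSO and 8.64, 7.89 and 5.70 in HU. None of 6 T-cell markers was listed, and of 6 myeloid markers 2 were listed below the minimum. COL1A1, a fibroblast collagen gene, was the 1 of 6 epithelial and fibroblast markers tested, at 1.30 to 3.88 CPM in DMSO, 8.09 to 13.7 in HU and 1.97 to 5.19 in Thy-Noc. The part of these markers in the differences between HU and the other groups was not tested. Between libraries of a group, 16.2% of all tested genes and 29 of the 178 solute carrier genes differed at least 10-fold after 0.5 CPM was added. These are called unsteady below. In bulk RNA, a change in the mix of cells and a change of RNA per cell cannot be told apart.

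For HU against DMSO, 6 of the 178 genes were called. The endolysosomal histidine and peptide transporter SLC15A4, the magnesium transporter SLC41A2, the zinc transporter SLC39A11 and the mitochondrial ATP-Mg/phosphate carrier SLC25A25 rose, and the multivitamin transporter SLC5A6 fell. The sixth, the iodide symporter SLC5A5, reached the minimum of 1 CPM in its HU libraries only, so its higher value in HU was built into its selection. After Thy-Noc no solute carrier gene was called against DMSO. A gene was called at an adjusted p below 0.05 (quasi-likelihood test of edgeR, Benjamini-Hochberg over all 11346 genes). By this rule 3.56% of all genes were called for HU against DMSO, 2% higher and 1.56% lower, so 6 of 178, or 5 without SLC5A5, is close to the background share. For HU against Thy-Noc the background was 1.75% (0.696% higher and 1.06% lower) and 3 solute carrier genes were called, all higher in HU and 1 of them SLC5A5. For Thy-Noc against DMSO it was 0.0353% (0.0264% higher and 0.00881% lower).

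Upstream DNA of 3 of the 5 genes called higher is shown because it holds short motifs known as binding sites of growth, stress or metal-responsive factors. The motifs, searched on both strands in windows from 250 bases before to 50 after each start site, were the E-box CACGTG, the cAMP response element TGACGTCA, the composite site TGATGNAA, the metal response core TGCACNC or TGCGCNC, and the E2F sites TTTGGCGC and TTTCCCGC. Sequences are from RefSeq on GRCh38.p14, 5′ to 3′ on the strand of the gene, with the motif in capitals. The SLC39A11 stretch is the 250 bases before its start site (chr17:73092689-73092938, minus strand), and its last 24 bases lie past the first GENCODE start of the gene. The SLC5A5 stretch is the 250 bases before its start site (chr19:17871695-17871944, plus strand). The SLC25A25 stretch is 30 bases (chr9:128098296-128098325, plus strand) around the element that lies 200 bases before the most downstream of its RefSeq start sites, 30306 bases from the GENCODE start of the gene.
SLC39A11: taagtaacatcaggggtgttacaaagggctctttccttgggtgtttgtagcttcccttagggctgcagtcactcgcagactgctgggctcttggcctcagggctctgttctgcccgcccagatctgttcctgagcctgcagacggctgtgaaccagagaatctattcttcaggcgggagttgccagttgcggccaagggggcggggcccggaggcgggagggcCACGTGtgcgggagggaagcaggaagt
SLC5A5: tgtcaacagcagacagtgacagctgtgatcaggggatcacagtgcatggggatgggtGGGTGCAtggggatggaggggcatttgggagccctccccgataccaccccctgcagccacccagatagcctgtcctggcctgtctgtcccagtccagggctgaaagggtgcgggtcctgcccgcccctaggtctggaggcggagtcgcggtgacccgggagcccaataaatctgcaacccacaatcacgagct
SLC25A25: ggagggagcggTGACGTCAgccctgatctt
The capitals mark an E-box in SLC39A11, a metal response core on the opposite strand in SLC5A5 and a cAMP response element in SLC25A25. The SLC39A11 window also held TGATGGAA at position 41 after the start. One of the SLC41A2 windows held an E-box at position 26 after the start, and the first SLC25A25 window held TGCGCCC at 103 bases before it. The windows of SLC15A4 and SLC5A6 held none of these letters. Windows were found for 147 of the 178 genes, 221 in all. The E-box stood in 13.1% of these and in 7.26% of all 35116 windows. The shares were 2.71% and 1.85% for the cAMP response element, 4.98% and 3.62% for TGATGNAA, 35.3% and 29.6% for the metal response core, and 4.07% and 2.27% for the E2F sites. The 35116 windows were not limited to genes that met the minimum, and a gene could have several windows. No share over the 11346 tested genes alone was computed, so the sets compared differ in more than the family. A match is a description of the letters and was not tested as a binding site.

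SLC41A2 (chr12:104802553-104958744, minus strand; this and all gene positions are GENCODE 29 on GRCh38) transports magnesium. Its level, as CPM on library sizes scaled by edgeR's TMM method, was 6.52, 6.11 and 6.63 in DMSO, 15.9, 11.8 and 14.2 in HU, with 7.29, 6.85 and 6.59 in Thy-Noc. Every HU library lay above every other library, and Thy-Noc overlapped DMSO. The log2 fold change was 1.12 ± 0.17 (SE) for HU against DMSO (edgeR adjusted p = 0.0235) and 1.01 ± 0.17 for HU against Thy-Noc (edgeR adjusted p = 0.0385).

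SLC39A11 (chr17:72645949-73092712, minus strand), a ZIP-family zinc transporter, stood at 99.8, 96.8 and 101 CPM in DMSO, 157, 155 and 138 in HU, with 84.9, 106 and 105 in Thy-Noc. The lowest HU library exceeded the highest of the other 6. The log2 fold change was 0.60 ± 0.11 (SE) for HU against DMSO (edgeR adjusted p = 0.0401). Against Thy-Noc it was also 0.60 ± 0.11, at an edgeR adjusted p of 0.04995, which lies at the threshold.

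SLC15A4 (chr12:128793191-128823983, minus strand) carries histidine and small peptides out of endolysosomes and is known in B cells and plasmacytoid dendritic cells for its part in Toll-like receptor signalling. Its CPM was 34.2, 36.9 and 33.5 in DMSO, 68.9, 90.5 and 62.3 in HU, with 30.4, 46.5 and 37.4 in Thy-Noc. The HU libraries again lay above all others, while Thy-Noc spread around DMSO on both sides. The log2 fold change was 1.08 ± 0.20 (SE) for HU against DMSO (edgeR adjusted p = 0.0399) and 0.96 ± 0.20 for HU against Thy-Noc, which was not called (edgeR adjusted p = 0.0632).

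SLC25A25 (chr9:128068201-128109245, plus strand) exchanges ATP-Mg for phosphate across the inner mitochondrial membrane and has a calcium-binding domain. It was at 94.1, 87.8 and 88.9 CPM in DMSO, 145, 138 and 124 in HU, with 128, 105 and 109 in Thy-Noc. Both treated groups lay above DMSO without overlap, and HU and Thy-Noc overlapped each other. The log2 fold change was 0.59 ± 0.11 (SE) for HU against DMSO (edgeR adjusted p = 0.0382). For Thy-Noc against DMSO it was 0.34 ± 0.11, with an unadjusted p of 0.0159 and an edgeR adjusted p of 1. Both comparisons use the same DMSO libraries.

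SLC5A6 (chr2:27199587-27212958, minus strand) takes up biotin, pantothenate and lipoate with sodium. It was the single solute carrier gene that edgeR called lower, from 226, 236 and 225 CPM in DMSO to 183, 172 and 175 in HU, with 204, 203 and 222 in Thy-Noc. HU was lowest and Thy-Noc lay between the other groups without overlap with either. The log2 fold change was -0.37 ± 0.07 (SE) for HU against DMSO (edgeR adjusted p = 0.0427). For HU against Thy-Noc it was -0.25 ± 0.07 (edgeR adjusted p = 0.132), and for Thy-Noc against DMSO -0.13 ± 0.07 (edgeR adjusted p = 1).

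SLC5A5 (chr19:17871973-17895174, plus strand), the sodium-iodide symporter of the thyroid, was scarce. Its CPM was 0.228, 0.224 and 0.191 in DMSO, 1.63, 1.61 and 1.74 in HU, with 0.301, 0.182 and 0.104 in Thy-Noc. It passed the minimum through its HU libraries only, so that a difference was built into its selection, and no p is given for it. It also falls outside the rule for named genes, which asks for a mean CPM of at least 2. As a description, the log2 fold change was 2.94 for HU against DMSO and 3.08 for HU against Thy-Noc.

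**Figure D1:**
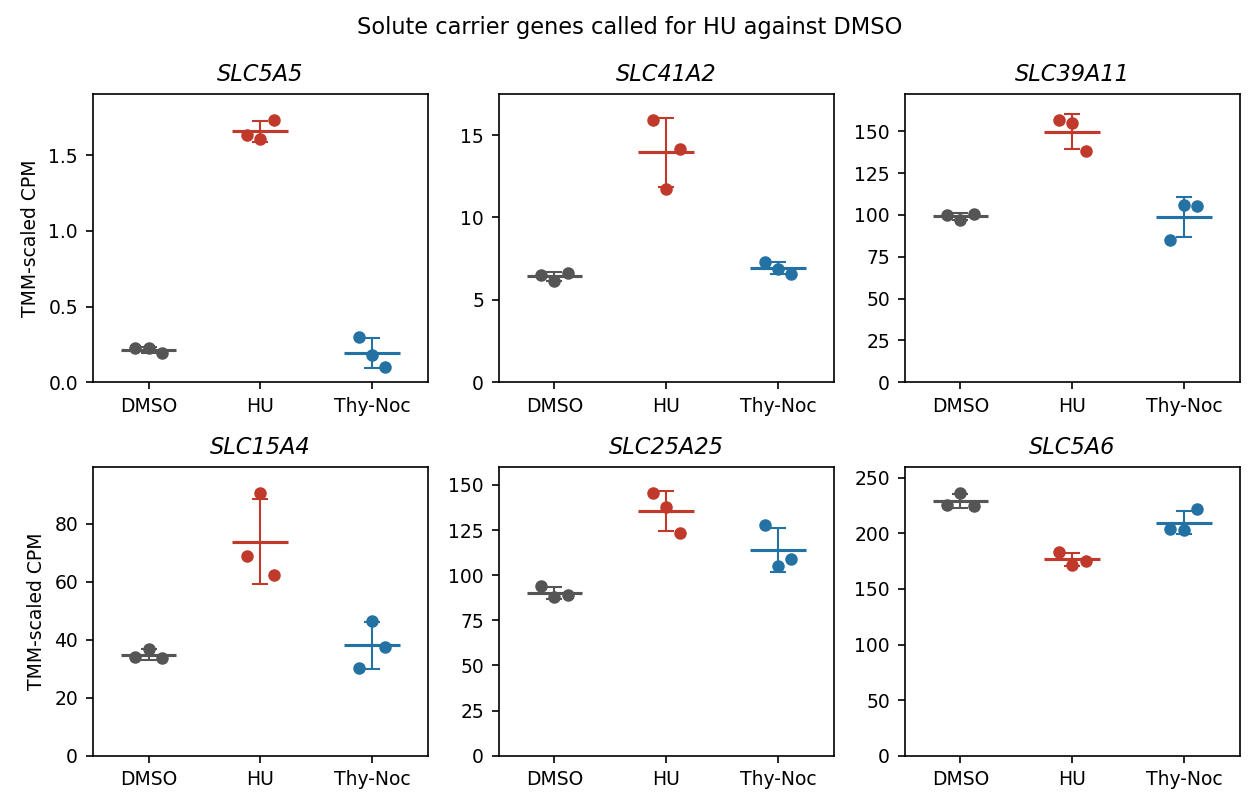
CPM on TMM-scaled library sizes (vertical axes, each from 0) of the 6 solute carrier genes called for HU against DMSO, by group; points are libraries, the horizontal line is the mean and the bar the SD (n = 3). The HU libraries lie above all DMSO libraries in 5 genes and below them in SLC5A6.

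The calls for HU against DMSO depended on single libraries. Without any 1 of the 3 DMSO libraries, or without HU replicate 1, the count of called genes was 0. It was 2 without HU replicate 2 and 1 without HU replicate 3, and that 1 was SLC4A2, an unsteady gene that is none of the 6. Without Thy-Noc replicate 1 it was 6, of which 5 were among the original 6, with SLC43A1 called and SLC5A6 not. Without Thy-Noc replicate 2 it was 3 and without replicate 3 it was 2. SLC5A5, whose higher value in HU was built into its selection, was among those called without HU replicate 2 and without each Thy-Noc replicate. All 6 genes kept their direction in each of these fits. With unsteady genes left out of the fit, a setting chosen after the data were seen, 9 were called and all 6 were among them. The others were SLC66A1, SLC20A1 and SLC43A1. DESeq2 called 23, with all 6 among them, and 19.5% of all genes.

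An unadjusted edgeR p under 0.05 was found for 30 of the 178 genes for HU against DMSO, beside 21.2% of all genes. Behind the called genes stood 9 steady genes with an unadjusted edgeR p under 0.02 that failed the adjustment and that were picked out after their values were seen. SLC66A1, which exports cationic amino acids from lysosomes, was at 23.4, 14.6 and 19.4 CPM in DMSO and 40.4, 37.7 and 37.0 in HU (log2 fold change 1.0 ± 0.23, edgeR adjusted p = 0.0644), with 14.6, 15.7 and 22.6 in Thy-Noc. SLC20A1, a sodium-phosphate symporter of the plasma membrane, was at 155, 164 and 167 in DMSO, 228, 203 and 248 in HU, with 138, 154 and 173 in Thy-Noc (0.49 ± 0.11, edgeR adjusted p = 0.065). In both genes HU did not overlap either other group. SLC43A1, a transporter of large neutral amino acids, was at 46.8, 59.4 and 52.7 in DMSO, 97.2, 129 and 102 in HU, with 39.2, 77.9 and 68.4 in Thy-Noc (1.05 ± 0.26, edgeR adjusted p = 0.0788). The copper importer SLC31A1 had a log2 fold change of 0.44, the ADP/ATP carrier SLC25A4 of 0.60 and SLC66A2 of 0.96. Values below DMSO were found for the glutamate transporter SLC1A1 (-0.42), the glutamine transporter SLC38A5 (-0.33) and the mitochondrial oxoglutarate carrier SLC25A11 (-0.45).

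**Figure D2:**
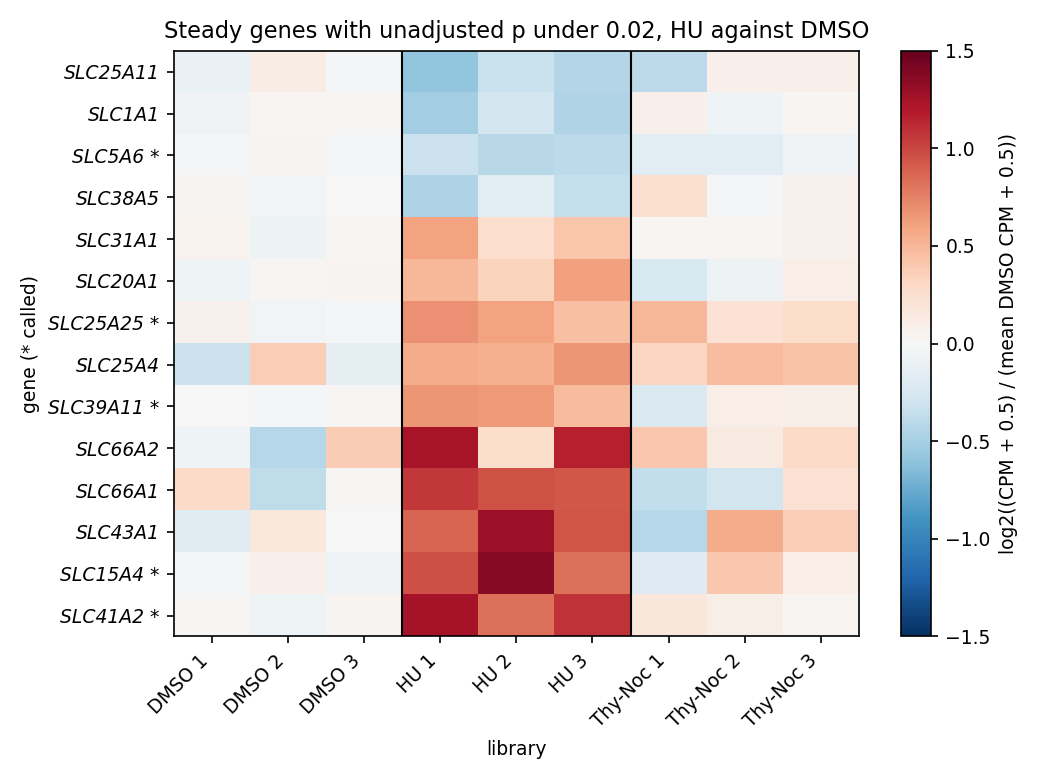
Colour gives log2 of the CPM plus 0.5 of each library over the mean DMSO CPM plus 0.5 (scale from -1.5 to 1.5), for the 14 steady genes of mean CPM 2 or more with an unadjusted p under 0.02 for HU against DMSO; columns are the 9 libraries and stars mark called genes. The rows were chosen by the test of HU against DMSO, the colours over all columns reach from -0.59 to 1.36 and those of the Thy-Noc columns from -0.43 to 0.55.

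In HU, the 178 genes together took a larger share of all counts than in DMSO, at 1.28%, 1.26% and 1.34% against 1.15%, 1.17% and 1.12%. In Thy-Noc the share was 1.16%, 1.08% and 1.15%. The HU libraries lay above the other 6, and an exact permutation test on both sides gave p = 0.1 for HU against DMSO, the smallest p that 3 against 3 allows, and p = 0.7 for Thy-Noc against DMSO. On TMM-scaled library sizes the summed CPM was 11386, 12009 and 11472 in DMSO, 12300, 12211 and 12220 in HU, with 12234, 10749 and 12596 in Thy-Noc. On this scale HU lay above DMSO without overlap (exact permutation p = 0.1), while HU and Thy-Noc overlapped (exact permutation p = 0.9). For Thy-Noc against DMSO the exact permutation p was 0.8. Unsteady genes enter these shares and sums. Over the 149 steady genes alone the summed CPM was 10553, 10094 and 10252 in DMSO, 10506, 10697 and 10608 in HU, with 10655, 9863 and 10752 in Thy-Noc, so that HU and DMSO overlapped. The median log2 fold change of the 178 genes was 0.09 for HU against DMSO, where that of all tested genes was 0.02. It was -0.06 for Thy-Noc against DMSO (all genes 0.01) and 0.15 for HU against Thy-Noc (all genes 0.01).

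Counted by libraries that do not overlap, 46 of the 178 genes differed between HU and DMSO, beside 30.7% of all genes. Of these, 27 were higher in HU and 19 lower. The background over all genes was 15.5% and 15.3%, and the corresponding shares of the 178 were 15.2% and 10.7%. For HU against Thy-Noc, 41 genes did not overlap, beside 24.9% of all genes. There 32 were higher and 9 lower in HU, which is 18% and 5.06% of the 178 beside 12.9% and 12% of all genes.

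Families grouped under amino acids and peptides held 27 genes, with a median log2 fold change of 0.27 for HU against DMSO. By family number, carriers of other solutes can fall in this class. SLC15A4 was called higher, none was called lower, 18 of the 27 were positive, and 7 were higher and 3 lower without overlap. Over all 11346 genes 5824 were positive, 3.56% were called, and 15.5% were higher and 15.3% lower without overlap, and the class counts below are to be read beside these. SLC38A2, a sodium-coupled neutral amino acid transporter that cells induce when amino acids are scarce, was at 301, 281 and 276 CPM in DMSO, 434, 303 and 360 in HU, with 257, 299 and 281 in Thy-Noc, and did not pass the test (edgeR adjusted p = 0.196). SLC7A1, a cationic amino acid transporter, was at 235, 252 and 228 in DMSO, 209, 207 and 212 in HU, with 218, 207 and 222 in Thy-Noc. Both treated groups of SLC7A1 lay below DMSO without overlap, and it did not pass the test in either comparison (edgeR adjusted p = 0.194 and 1). The glutamine transporter SLC1A5 overlapped in all groups, at 449, 499 and 456 in DMSO, 481, 418 and 456 in HU, with 468, 393 and 488 in Thy-Noc.

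Metal carriers numbered 22, with a median of 0.10. SLC39A11 and SLC41A2 were called higher, none lower, and 15 were positive. SLC31A1 stood at 22.8, 20.7 and 22.2 CPM in DMSO, 33.5, 26.2 and 29.5 in HU, with 22.1, 22.3 and 22.9 in Thy-Noc, where HU did not overlap the other groups (edgeR adjusted p = 0.115). The zinc exporter SLC30A1, a textbook target of the zinc-sensing factor MTF1, was at 13.1, 12.1 and 10.5 in DMSO and 11.7, 13.1 and 13.2 in HU, which overlap. Of 13 tested genes of metal handling outside the family, 1 was called for HU against DMSO, beside the background of 3.56%. This was ATP7B, a copper-transporting ATPase, at 0.951, 1.92 and 1.86 CPM in DMSO, 6.85, 8.10 and 5.66 in HU, with 1.43, 2.09 and 2.26 in Thy-Noc. Its log2 fold change for HU against DMSO was 2.12 ± 0.34 (SE, edgeR adjusted p = 0.0277). The call of ATP7B was not examined under the alternative settings of the closing section. The metallothionein gene MT2A was at 33.2, 36.8 and 31.6 in DMSO and 47.4, 28.0 and 46.8 in HU, which overlap. MT1X, another metallothionein gene, was at 14.1, 14.9 and 18.0 in DMSO and 11.2, 5.69 and 7.75 in HU, where HU lay below DMSO without overlap and was not called (log2 fold change -0.93 ± 0.28, edgeR adjusted p = 0.12).

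Mitochondrial carriers were the largest class, with 35 genes and a median of 0.00 for HU against DMSO. SLC25A25 was called higher, none was called lower, and 4 genes lay higher and 7 lower without overlap, beside 15.5% and 15.3% of all genes. Among the latter, SLC25A11 was at 105, 121 and 111 CPM in DMSO and 74.4, 89.3 and 82.7 in HU (edgeR adjusted p = 0.147), the mitochondrial iron importer SLC25A37 at 47.7, 52.4 and 52.9 and 31.9, 41.6 and 42.0 (edgeR adjusted p = 0.183), and the aspartate-glutamate carrier SLC25A13 at 60.9, 65.3 and 57.5 and 52.3, 52.7 and 49.7 (edgeR adjusted p = 0.212). The ADP/ATP carriers SLC25A4, SLC25A5 and SLC25A6 are closely related genes with processed pseudogenes. Reads may therefore be split between them, which was not tested, and their values are uncertain. Of 20 tested carriers whose symbols are not SLC followed by a digit, none was called for HU against DMSO, beside 3.56% of all genes. MPC1, a subunit of the mitochondrial pyruvate carrier, was at 119, 113 and 94.2 CPM in DMSO, 55.2, 44.8 and 49.6 in HU, with 65.7, 120 and 131 in Thy-Noc (log2 fold change for HU against DMSO -1.12 ± 0.26, edgeR adjusted p = 0.0615).

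Families grouped under sugars and polyols held 13 genes with a median of 0.18, and, by family number, both SLC5A5 and SLC5A6, which move iodide and vitamins. The glucose transporter SLC2A1 was at 254, 334 and 276 CPM in DMSO, 195, 676 and 257 in HU, with 323, 430 and 300 in Thy-Noc, and HU replicate 2 stood far above the others. The neuronal-type glucose transporter SLC2A3 was unsteady, at 3.55, 0.747 and 0.432 in DMSO, 15.2, 22.1 and 11 in HU, with 2.30, 8.27 and 0.207 in Thy-Noc. The HU libraries of SLC2A3 lay above all others, and its log2 fold change against DMSO was 3.35 ± 1.32 (edgeR adjusted p = 0.204). The fructose transporter SLC2A5 was steady in DMSO, at 424, 427 and 430, and ranged from 388 to 523 in HU and from 433 to 671 in Thy-Noc.

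Carriers of inorganic ions and protons numbered 24, with a median of 0.33, 19 positive and none called. The potassium-chloride cotransporter SLC12A4 had a log2 fold change of 0.67 ± 0.35, with HU and DMSO overlapping. Nucleotide sugar and other secretory pathway carriers numbered 23, with a median of 0.11, 16 positive and none called. The endoplasmic reticulum glucose-6-phosphate carrier SLC37A4 was at 9.22, 3.29 and 4.15 in DMSO, 46.5, 7.31 and 8.48 in HU, with 1.43, 6.77 and 5.02 in Thy-Noc, with HU replicate 1 alone far up. SLC35C2, a Golgi protein of this class, had a log2 fold change of 1.22 ± 0.88. Classes with no call were also vitamins, choline and haem (7 genes, median -0.56, 2 positive), lipids and organic ions (7 genes, median -0.15, 1 positive), monocarboxylates (5 genes, median 0.08) and nucleosides (3 genes, median -0.23). SLC44A2, a choline transporter-like protein, had a log2 fold change of 0.55 ± 0.27 and the thiamine transporter SLC19A2 of -0.40 ± 0.48. In the lipid and monocarboxylate classes the named genes were the fatty acid and bile acid activating enzyme SLC27A5 (-0.05 ± 0.72), SLC10A3 (-0.52 ± 0.69), SLC16A6 (0.08 ± 0.28) and SLC16A7 (-0.27 ± 0.17). For Thy-Noc against DMSO the values were -0.63 ± 0.72 for SLC27A5, -0.30 ± 0.69 for SLC10A3, -0.51 ± 0.28 for SLC16A6 and -0.32 ± 0.17 for SLC16A7, none of them called. SLC16A6 lay below DMSO without overlap in Thy-Noc.

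Nucleoside transporters bring in the nucleosides used for salvage. SLC29A2 was at 111, 69.2 and 64.6 CPM in DMSO, 41.0, 57.7 and 62.1 in HU, with 53.9, 107 and 54.0 in Thy-Noc. The lysosomal SLC29A3 was at 37.0, 35.5 and 37.0 in DMSO, 26.6, 33.4 and 33.5 in HU, with 35.9, 13.8 and 14.8 in Thy-Noc. In both genes HU lay below DMSO without overlap, and neither passed the test (edgeR adjusted p = 0.381 and 0.813). The main plasma membrane nucleoside transporter, SLC29A1, was unsteady and is given below.

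**Figure D3:**
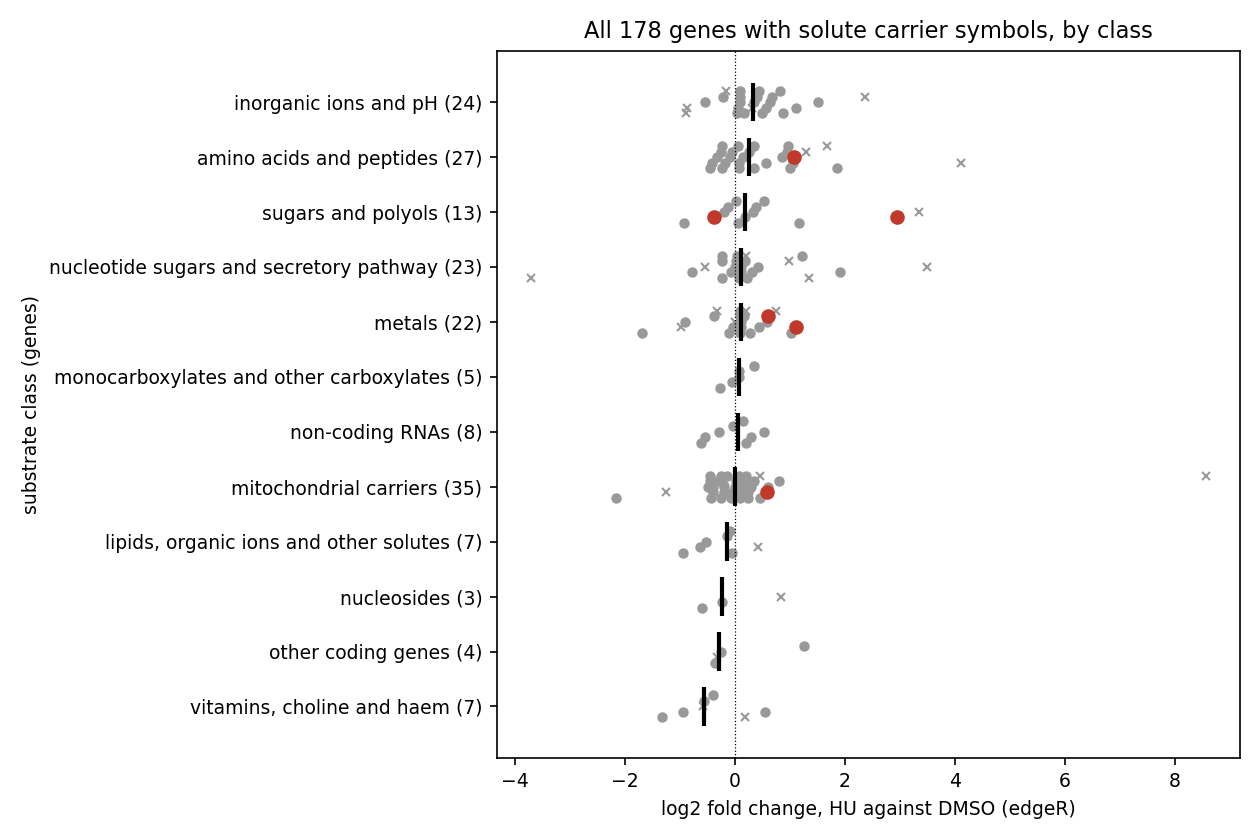
Log2 fold change for HU against DMSO (horizontal axis) of each of the 178 genes, by class (vertical axis, number of genes in brackets); circles are steady genes, crosses unsteady genes, red circles called genes and black bars class medians. Medians run from -0.56 for vitamins, choline and haem to 0.33 for inorganic ions, and the cross at 8.57 is SLC25A5.

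For Thy-Noc against DMSO, edgeR called none of the 178 genes. An unadjusted edgeR p under 0.05 was found for 4 of them, beside 4.49% of all genes. limma called none at any of 3 pseudocounts, and DESeq2 called 1, SLC35A1, an unsteady gene. The 4 were SLC25A25, described above, SLC35A1, SLC38A9 and SLC24A1, chosen after their values were seen. SLC38A9, the lysosomal arginine sensor upstream of mTORC1, was at 4.65, 6.18 and 0.674 CPM in DMSO, 2.52, 1.14 and 6.05 in HU, with 0.601, 0.324 and 0.0207 in Thy-Noc. The potassium-dependent sodium-calcium exchanger SLC24A1 was at 4.04, 4.29 and 5.05 in DMSO, 4.56, 6.25 and 3.01 in HU, with 2.94, 2.95 and 2.59 in Thy-Noc. Thy-Noc lay below both other groups in SLC24A1. SLC38A9 and SLC35A1 reached 1 CPM in no Thy-Noc library and passed the minimum through the other groups, so part of their difference was built into their selection. Thy-Noc and DMSO did not overlap in 17 of the 178 genes, beside 9.97% of all genes. Of these, 4 were higher and 13 lower in Thy-Noc, beside backgrounds of 5.18% and 4.79%.

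For HU against Thy-Noc, SLC41A2 and SLC39A11 were called higher in HU, and so was SLC5A5, which passed the minimum through its HU libraries only. An unadjusted edgeR p under 0.05 was found for 28 of the 178 genes, beside 19.4% of all genes. Without any 1 of the DMSO libraries, without HU replicate 1 or 3, or without Thy-Noc replicate 2 or 3, none was called. The count was 2 without HU replicate 2 and 1 without Thy-Noc replicate 1. SLC5A5 was 1 of those 2, and it was the only gene called without Thy-Noc replicate 1. With unsteady genes left out 6 were called, the 3 together with SLC15A4, SLC20A1 and SLC66A1. The proton-coupled carrier SLC16A13 was at 2.56, 3.28 and 2.53 CPM in HU, with 0.915, 1.49 and 1.80 in Thy-Noc, and the glycine transporter SLC6A9 at 3.30, 5.95 and 1.77 in HU, with 0.902, 1.13 and 1.09 in Thy-Noc. Both stood apart between these groups and neither was called (edgeR adjusted p = 0.123 and 0.126).

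Partners and regulators of carriers were listed apart from the 178 genes, and 20 were tested. For HU against DMSO, 1 was called, beside 3.56% of all genes. This was SESN2, a stress-induced leucine-binding protein that restrains mTORC1. It was at 17.2, 15.1 and 17.0 CPM in DMSO, 33.0, 27.0 and 24.8 in HU, with 20.1, 16.1 and 18.0 in Thy-Noc, with a log2 fold change of 0.78 ± 0.16 (SE, edgeR adjusted p = 0.0496). This lies at the threshold, and the call of SESN2 was not examined under the alternative settings of the closing section. TXNIP, which promotes internalisation of glucose transporters, was at 32.8, 29.4 and 36.2 in DMSO, 67.4, 63.2 and 113 in HU, with 59.6, 33.1 and 31.7 in Thy-Noc, and was not called (edgeR adjusted p = 0.0767). BSG, the chaperone of monocarboxylate transporters, overlapped between the groups, at 551, 553 and 520 in DMSO, 552, 358 and 606 in HU, with 348, 506 and 520 in Thy-Noc. The scaffold NHERF1, which belongs to this list and to the 178 genes, was at 124, 145 and 132 in DMSO and 114, 110 and 111 in HU (edgeR adjusted p = 0.182).

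Levels of different genes were compared per kilobase of merged exon. Merged exons join those of all annotated transcripts of a gene, so the order depends on that length. SLC25A3, with 17 annotated transcripts and 8896 merged bases, had a DMSO mean of 268 CPM but only 30.1 CPM per kb. Among steady genes, the highest mean levels in DMSO were those of SLC25A6 (358 ± 21.7 CPM per kb, SD, n = 3), the nucleobase transporter SLC43A3 (275 ± 44.1), the lactate transporter SLC16A1 (176 ± 12.2) and SLC1A5 (140 ± 8.11). The place of SLC25A6 is uncertain, since reads may be split between it and the closely related genes named above. The DMSO libraries of these 4 did not overlap one another. Below them were SLC38A5 (83.3 ± 2.55), SLC38A1 (75 ± 4.12), SLC25A1 (73.6 ± 7.56), SLC2A5 (63.8 ± 0.482) and SLC2A1 (61.0 ± 8.76), where the DMSO libraries of neighbours overlapped except between SLC38A5 and SLC38A1 and between SLC25A1 and SLC2A5. SLC16A1 did not differ beyond the spread between groups, at 928, 1004 and 874 CPM in DMSO, 1013, 736 and 960 in HU, with 1028, 770 and 999.9 in Thy-Noc.

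The 29 unsteady genes make up 16.3% of the 178, beside 16.2% of all tested genes, and 6 of them differed more than 100-fold within a group. The 5 with the highest mean CPM show the pattern. The equilibrative nucleoside transporter SLC29A1 was at 56.5, 874 and 69.4 CPM in DMSO, 112, 845 and 836 in HU, with 102, 36.4 and 832 in Thy-Noc. SLC4A7, a sodium-bicarbonate cotransporter, was at 0.0761, 237 and 243 in DMSO, 257, 5.87 and 0.153 in HU, with 0.205, 266 and 206 in Thy-Noc. Both genes had high and low libraries in every group. The ADP/ATP carrier SLC25A5 was at 0.900, 0.271 and 0.165 in DMSO, 507, 0.246 and 0.0477 in HU, with 570, 2.10 and 0.414 in Thy-Noc. The mitochondrial outer membrane protein SLC25A46 was low in 1 library, at 181, 0.441 and 164 in Thy-Noc against 150, 170 and 156 in DMSO and 156, 120 and 145 in HU. The magnesium transporter SLC41A1 was at 146, 147 and 149 in DMSO, 111, 119 and 120 in HU, with 0.0546, 144 and 136 in Thy-Noc. These values may not hold all reads of the gene. In SLC41A1, which was unsteady through 1 Thy-Noc library alone, HU lay below DMSO without overlap and was not called (edgeR adjusted p = 0.946). Unsteady genes had a median of 9 annotated transcripts and steady ones 8.

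**Figure D4:**
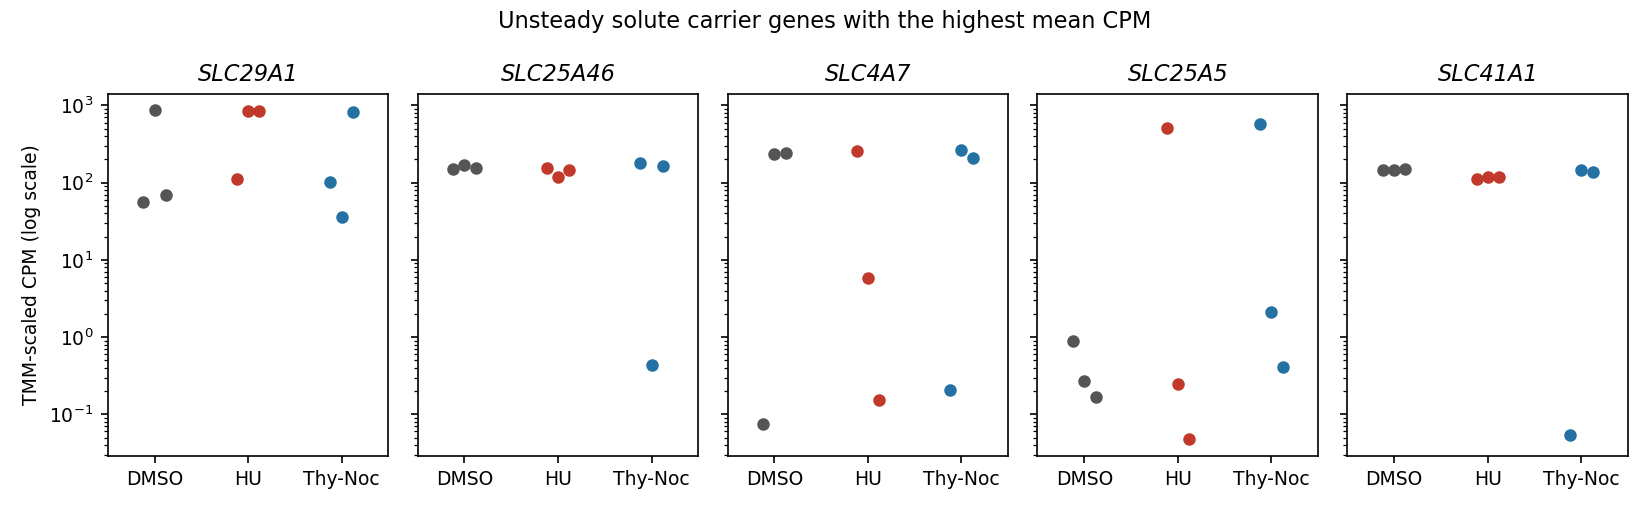
CPM on TMM-scaled library sizes (vertical axis, log scale) of the 5 unsteady solute carrier genes with the highest mean CPM, by group; each point is 1 library. Within a group the libraries of SLC4A7 and SLC25A5 span more than 100-fold, and SLC25A46 and SLC41A1 are low in 1 Thy-Noc library each.

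None of the 8 non-coding RNAs was called in any comparison. SLC16A1-AS1, antisense to the lactate transporter gene, was at 13.4, 13.0 and 14.0 CPM in DMSO, 15.5, 16.7 and 17.1 in HU, with 8.11, 16.8 and 9.09 in Thy-Noc. HU lay above DMSO without overlap (edgeR adjusted p = 0.639). SLC12A2-DT was at 21.8, 11 and 16.1 in DMSO and 31.7, 12.6 and 11.8 in HU. SLC25A25-AS1 was at 3.56, 2.12 and 4.13 in DMSO and 2.15, 2.02 and 2.26 in HU, while SLC25A25 on the other strand was called higher. Whether counting used strand is not stated, so reads of a gene and of an overlapping antisense RNA may not have been told apart. Of the 4 genes for other proteins, SLC7A6OS was at 0.507, 0.467 and 1.07 in DMSO, 1.11, 2.05 and 1.72 in HU, with 0.915, 0.467 and 0.652 in Thy-Noc, and was not called. Outside HU it stood above 1 CPM in DMSO replicate 3 alone, so it met the minimum mainly through HU. Part of its difference was therefore built into its selection. SLC2A4RG was at 12.7, 18.2 and 11.1 in DMSO, 10.9, 8.99 and 12.6 in HU, with 14.0, 14.4 and 17.6 in Thy-Noc.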

How the data were processed

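RNA of 9 Raji libraries, 3 each for DMSO, HU and Thy-Noc, was sequenced after library construction with a TruSeq stranded mRNA kit (labels' protocols). GRCh38 and, with no versions, STAR, Trim Galore, FastQC and DESeq2 stand in the submitters' processing notes. Counter, annotation and strand use: not given in the sources used here. What the authors deposited is named for CPM but holds whole numbers with unequal totals of 74940755 to 110485145. These deposited values were therefore read to be expected counts (estimated counts, rounded). There is no 0 and 274 genes stand at 1 in all libraries, so the smallest CPM values stand for few counts, near that lowest value. In 16.2% of tested genes, libraries of a group differed at least 10-fold. Some values may cover only part of a gene's reads, which was not tested. At a median count of 1382, counting error is small beside the spread between libraries. Symbols came from a table of gene names (15393 of 15436 matched) and positions from GENCODE 29 (15272 matched).

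Groups followed the labels. Genes that reached 1 CPM in 3 or more libraries were fitted in R 4.3.3 with edgeR 4.0.16 (TMM, quasi-likelihood, all 9 libraries, 3 groups, residual df 6, prior df 1.25), two-sided, with Benjamini-Hochberg adjustment over 11346 genes. SEs were computed from the fold change and F. CPM in the text uses TMM-scaled library sizes, and the share of counts uses plain totals. The steps were run on simulated counts with the same dispersion for every gene. Unsteady genes were not simulated, so that run does not show how the fit handles them. Within groups, chi-square divided by its df was 930 to 1230, so no library repeats another of its group. Deviations of same-numbered libraries of different groups were at most weakly correlated, as given in the closing section. Named genes were called genes of mean CPM 2 or more, in classes without a call the 2 steady genes of mean CPM 5 or more with the largest change against DMSO, the 5 unsteady genes with the highest mean CPM, and called genes of the lists. A gene that this rule names and a cell type marker are not reported here. Other uncalled genes given with values, SLC38A2, SLC7A1, SLC2A1, SLC2A3, MPC1 and TXNIP among them, fall outside the rule for named genes. No fixed rule picked them. Unsteady means at least 10-fold between libraries of a group after adding 0.5 CPM. Substrate classes follow family numbers, and genes for other proteins and non-coding RNAs were set apart after the classes had been fixed. The genes and lists were chosen with earlier results of these data known. Alternatives were no filter, a minimum of 5 CPM, median-of-ratios scaling, plain totals, DESeq2 1.42.0, limma 3.58.1 on log2(CPM + 0.1, 0.5 or 1), the 6 libraries compared, the replicate number as a block, each library left out, and, added after the data were seen, steady genes only.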

Additional observations from a re-analysis of the deposited data

How the results depend on the processing

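For HU against DMSO, 6 solute carrier genes were called. The count was 2 with no filter, 23 with DESeq2 (14 higher, 9 lower; 19.5% of all genes), 1 with only the 6 libraries compared and 0 with the replicate block, and from 0 to 6 with 1 library left out. SLC5A5, whose higher value in HU was built into its selection, was the 1 gene called with only the 6 libraries compared. It was also 1 of the 2 with no filter. With plain totals the count was 5, all higher, beside 5 higher and 1 lower. It was 6 or 7 under a minimum of 5 CPM, median-of-ratios scaling and limma, and 9 with steady genes only. For Thy-Noc against DMSO, DESeq2 called 1 and each other alternative 0, with 2 to 9 genes at an unadjusted p under 0.05 outside DESeq2 and 15 in it. For HU against Thy-Noc, 3 were called. The count was 1 with no filter, 18 with DESeq2 (15 higher, 3 lower; 16.7% of all genes), 5, 5 and 6 with limma at pseudocounts of 0.1, 0.5 and 1 CPM, 0 with only the 6 libraries compared, 0 with the replicate block, 6 with steady genes only, and from 0 to 2 with 1 library left out. The 1 gene called for HU against Thy-Noc with no filter was SLC5A5. The cause of the differences between settings was not tested, except that the settings with fewer libraries test fewer samples.

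Plain totals moved the median log2 fold change of all genes by 0.10 for HU against DMSO and by 0.15 for HU against Thy-Noc, and the calls over all genes from 227 higher and 177 lower to 271 and 102, and from 79 and 120 to 111 and 46. The 5 called genes other than SLC5A5 kept their direction in 20 of 20 alternatives for HU against DMSO. Of these, SLC41A2 was called in 13, SLC15A4 in 10, SLC25A25 and SLC39A11 in 9 each, and SLC5A6 in 7, with none of the 9 fits that left out a library. No called value changed sign. Deviations from the group means had correlations of -0.035 to 0.0405 between same-numbered libraries of different groups, beside -0.0536 to 0.0331 for other numbers. Only 1 of 9 libraries correlated best with those of its own number, so the numbers were not taken to pair the libraries. Between HU and Thy-Noc, however, same-numbered pairs were at 0.0405, 0.0393 and 0.0292. All other pairs of these groups were negative, from -0.0335 to -0.00597. Deviations from a group mean cancel out within the group, so positive same-numbered pairs make the others negative on average. The negative sign is therefore no separate sign of pairing, and a weak pairing there remains possible. The smallest library held 74940755 counts, and a limit set by depth was not tested.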
